A study of Mus musculus with 2 samples.

Results

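The 10 genes described here serve glycolysis and the transcriptional response to low oxygen. They were taken by symbol (Ldha, Pgk1, Aldoa, Eno1, Gapdh, Slc2a1, Bnip3, Vegfa, Pdk1 and Hk2), and all 10 had a row among the 18088 genes of the table. They were named as a list, with earlier results of these data known, and not picked by a threshold. The material was medial ganglionic eminence (MGE), a ventral forebrain progenitor region and the main source of cortical interneurons, dissected from CD-1 mouse embryos at E11.5. Single-cell RNA-seq was done by 10x Chromium, and MULTI-seq tagged each cell suspension with a lipid-anchored barcode so that several could share 1 run. The pool combined material for the enhancers hs192 and hs799. GFP-gated cells carried 4 of the 6 barcodes and ungated cells the other 2, in equal numbers for both enhancers. No map from cells to these barcodes was used, so the 4001 cells formed 1 sample, and the gate may have set the share of any cell class.

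Glycolysis splits glucose into pyruvate in the cytosol, and lactate dehydrogenase turns pyruvate into lactate so that the pathway can run without mitochondrial respiration. Under low oxygen the transcription factor HIF-1 escapes degradation, binds hypoxia response elements with the core letters ACGTG, and raises transcription of glucose transporters, glycolytic enzymes, Pdk1, Bnip3 and Vegfa. Proliferating cells often run glycolysis when oxygen is present as well, and stem and progenitor cells of the nervous system are known for it.

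The core letters were looked for in the 250 bases before each RefSeq transcription start (build GRCm38.p6), on both strands, since these genes share a known regulator. All 10 genes matched a window, and 7 of them had ACGTG in at least 1 of their windows, in 8 of 17 windows altogether. Of all 32851 windows 16.6% held it, and of all 27025 gene symbols 18.5% had it in at least 1 window. Eno1, Gapdh and Pdk1 had no match, which says only that these letters are not in those windows. The other form of the core, GCGTG, was in 9 of the 17 windows, beside 28.2% of all windows. Those windows belonged to 7 of the 10 genes, Eno1, Gapdh and Pdk1 among them. Its share over all gene symbols was not taken. Vegfa counts for either form only through the window of an inner start, chr17:46025164-46025413, which lies within the gene. The window before its outermost start, chr17:46032378-46032627, held neither form. Aldoa likewise had ACGTG only in windows of inner starts, and its outermost window, chr7:126800448-126800697, held neither form. The Ldha window with ACGTG, chr7:46845554-46845803, also lies within the gene as annotated in GENCODE M21. A match overlaps the palindromic E-box CACGTG in Ldha and Bnip3, and a palindrome counts on both strands. Stretches of 60 bases are shown for Ldha, Pgk1 and Hk2, whose levels are lower in neurons, and for Bnip3, whose level is not. Capitals mark the ACGTG core on either strand, and none of the stretches overlaps an exon of the GENCODE M21 annotation.
Ldha, chr7:46845728-46845787, plus strand: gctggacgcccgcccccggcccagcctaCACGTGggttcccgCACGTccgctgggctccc
Pgk1, chrX:106186922-106186981, plus strand: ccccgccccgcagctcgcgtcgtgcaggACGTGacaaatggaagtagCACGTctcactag
Hk2, chr6:82774475-82774534, minus strand: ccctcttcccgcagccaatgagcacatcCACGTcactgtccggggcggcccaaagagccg
Bnip3, chr7:138909583-138909642, minus strand: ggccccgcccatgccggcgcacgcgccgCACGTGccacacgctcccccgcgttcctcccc
In the Ldha window with a match, the cores began 48, 47 and 34 bases before the start, with others at 145 and 144. In Pgk1 they began 150 and 131 bases before it, in Hk2 226 and 52, and in Bnip3 108 and 107.

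Cells were clustered without these genes and the related pathway genes, so that a gene's level did not help to define the cells it was read in. Of the 18 clusters, 3 were ventricular zone progenitor-like (1045 cells), 4 subventricular zone progenitor-like (623 cells) and 10 neuron-like (2001 cells), and 1 (326 cells, led by Tgfb3 and St18) stayed unnamed. Ventricular zone progenitors divide at the ventricle and carry the Notch effector Hes5, subventricular zone progenitors are their more committed daughters with the Notch ligand Dll1, and neurons carry Tubb3. Cluster 6, led by Gsx1 and Msx3, carried 8 elevated markers of each progenitor kind. Cell totals ran from 10475 to 14196, with class medians of 13516 in ventricular zone, 12600 in subventricular zone and 11967 in neuron-like cells. A level is a gene's summed value per 10000 summed values of a class, so it is a share of the deposited values and not an amount per cell. The SD given with it is over cells of 1 library. With 1 library there is no spread between animals to set a difference against, no p-value was computed, and a gene is called lower or higher where 2 levels differ at least 2-fold.

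Nearly the whole group was lower in neurons. Of the 10 genes, 9 were at least 2-fold lower in neuron-like than in ventricular zone progenitor-like cells and 0 were higher. Among the 14770 genes with at least 30 summed values in these cells, 24.4% were lower by that much and 17.1% higher. The median log2 ratio of neurons to progenitors was -1.66 over the 10 genes and -0.16 over all genes tested. Hk2 and Ldha differed most, at 30.9-fold and 14.0-fold (log2 ratios of -4.95 and -3.81), and Gapdh and Pgk1 stood just past the threshold at 2.10-fold and 2.07-fold. Bnip3 lay on the other side at 1.75-fold higher in neurons. The ratio of Hk2 depended on the clustering, at -5.77 with all genes allowed in clustering and -5.57 with 4000 variable genes. Without the 40 cells of neuron-like cluster 7, which hold 12 of the 41 neuronal Hk2 values, a setting chosen after seeing the data, it was -5.42, and 9 of the 10 genes were again lower.

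**Figure D1:**
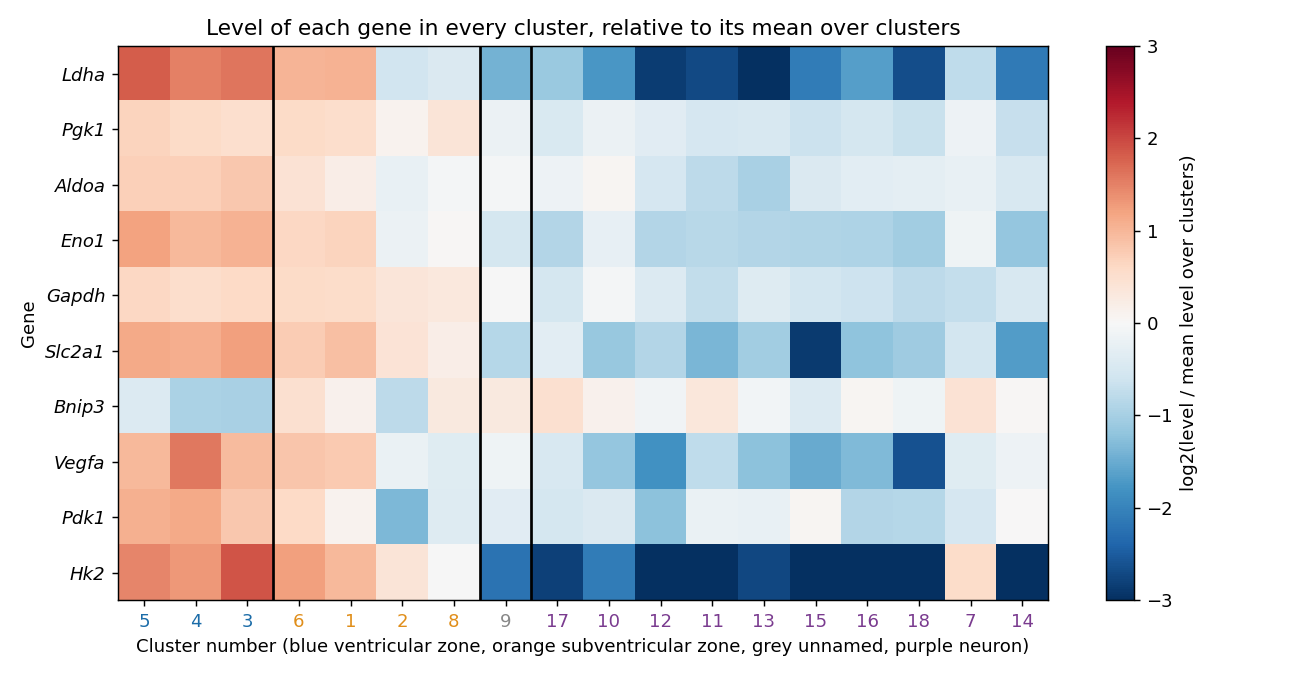
Level of each of the 10 genes (rows) in the 18 clusters (columns, by class and then by Tubb3 level), as log2 of the level over the gene's mean over clusters, with colours ending at 3 either way. All 3 ventricular zone clusters are above the mean for every gene except Bnip3, which is below it there.

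Slc2a1 (GLUT1, chromosome 4, 119108711 to 119137983, GRCm38) encodes the glucose transporter of the blood-brain barrier and of many dividing cells. Its level was 0.0511 (SD 0.212) in neuron-like cells and 0.268 (SD 0.436) in ventricular zone cells, a log2 ratio of -2.39. After thinning each cell to 10000 values, 4.75% of neuron-like cells had a value (exact 95% interval 3.86% to 5.77%), against 24.7% of ventricular zone cells (22.1% to 27.4%). Unthinned shares were 5.80% and 31.3% in the same order. These intervals, like all others here, cover the counting of cells only.

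Hk2 (chromosome 6, 82725025 to 82774454) is a hexokinase that traps glucose in the cell by phosphorylation. Its level was 0.0168 (SD 0.145) in neuron-like cells and 0.519 (SD 0.620) in ventricular zone cells, and its log2 ratio of -4.95 stood lower than that of all but 2.32% of the genes tested. It had a value in 1.20% of neuron-like cells (0.770% to 1.78%) and 42.3% of ventricular zone cells (39.3% to 45.4%). In cluster 15, led by Map3k5 and Gabra2, it was listed at 0 in all 154 cells, which allows a share of up to 1.95% of cells with a value (3 of 154) and does not limit the share of cells that express it.

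The enzymes of the middle steps differed less. Aldoa (chromosome 7, 126795234 to 126800751) is aldolase A, which cleaves the six-carbon sugar, and its level was 1.52 (SD 1.26) in neuron-like and 3.42 (SD 2.09) in ventricular zone cells. Gapdh (chromosome 6, 125161715 to 125166467), the dehydrogenase that follows, was at 11.7 (SD 4.91) in neuron-like and 24.6 (SD 6.49) in ventricular zone cells, and every cell used had a value. Pgk1 (chromosome X, 106187100 to 106203699) encodes the kinase of the first step that makes ATP, and was at 1.84 (SD 1.34) in neuron-like and 3.81 (SD 1.89) in ventricular zone cells. Most neuron-like cells still had a value, 74.6% for Aldoa and 82.8% for Pgk1. For Gapdh, 9 in 10 neuron-like cells lay below 18.2, against a median of 24.3 in ventricular zone cells. Eno1 (chromosome 4, 150236721 to 150248879), enolase, was 3.85-fold lower in neurons, at 1.23 (SD 1.18) against 4.73 (SD 2.71).

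Ldha (chromosome 7, 46841475 to 46855627), the lactate dehydrogenase subunit that favours lactate formation, was missing from many neuron-like cells and high in most ventricular zone cells. Its level was 0.537 (SD 0.876) in neuron-like and 7.53 (SD 4.51) in ventricular zone cells. The median neuron-like cell had no value and the median ventricular zone cell stood at 6.64 per 10000. A deposited value of at least 5 was found in 26 of 2001 neuron-like cells and in 858 of 1045 ventricular zone cells (82.1%). For Pgk1 the same value was reached by 175 neuron-like cells (8.75%) and 563 ventricular zone cells (53.9%), so the classes overlapped more than for Ldha.

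**Figure D2:**
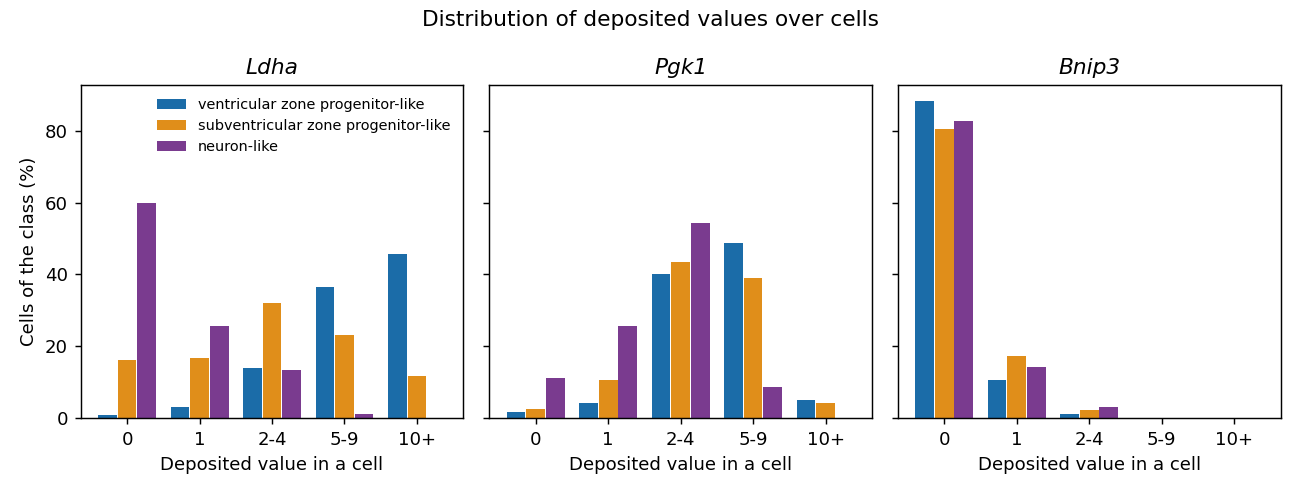
Share of cells of each class (vertical axis, %) by the deposited value of Ldha, Pgk1 and Bnip3 in a cell (horizontal axis, in ranges). For Ldha, 59.8% of neuron-like cells are at 0 and 45.6% of ventricular zone cells at 10 or more, with subventricular zone cells spread between; for Bnip3 most cells of all 3 classes are at 0.

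The hypoxia genes outside glycolysis did not differ as 1 group. Pdk1 (chromosome 2, 71873224 to 71903858), a kinase that shuts pyruvate dehydrogenase, was 2.59-fold lower in neurons, at 0.0429 (SD 0.202) against 0.111 (SD 0.290). Vegfa (chromosome 17, 46016993 to 46032369), the secreted factor that attracts vessels, was 4.04-fold lower, at 0.0409 (SD 0.201) in neuron-like and 0.165 (SD 0.350) in ventricular zone cells. Shares of cells with a value were 4.30% (3.45% to 5.28%) in neurons and 10.6% (8.82% to 12.7%) in progenitors for Pdk1, and 3.75% (2.96% to 4.68%) and 15.2% (13.1% to 17.5%) for Vegfa.

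Bnip3 (chromosome 7, 138890836 to 138909519), a mitochondrial outer membrane protein that recruits mitochondria to autophagy, ran the other way, although within the threshold. It was at 0.170 (SD 0.398) in neuron-like and 0.0974 (SD 0.288) in ventricular zone cells, a log2 ratio of 0.80. A value was found in 14.8% of neuron-like cells (13.3% to 16.5%) and 9.28% of ventricular zone cells (7.59% to 11.2%). These intervals say nothing of the spread between animals. Over the 9 alternative settings its log2 ratio lay between 0.60 and 0.79.

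**Figure D3:**
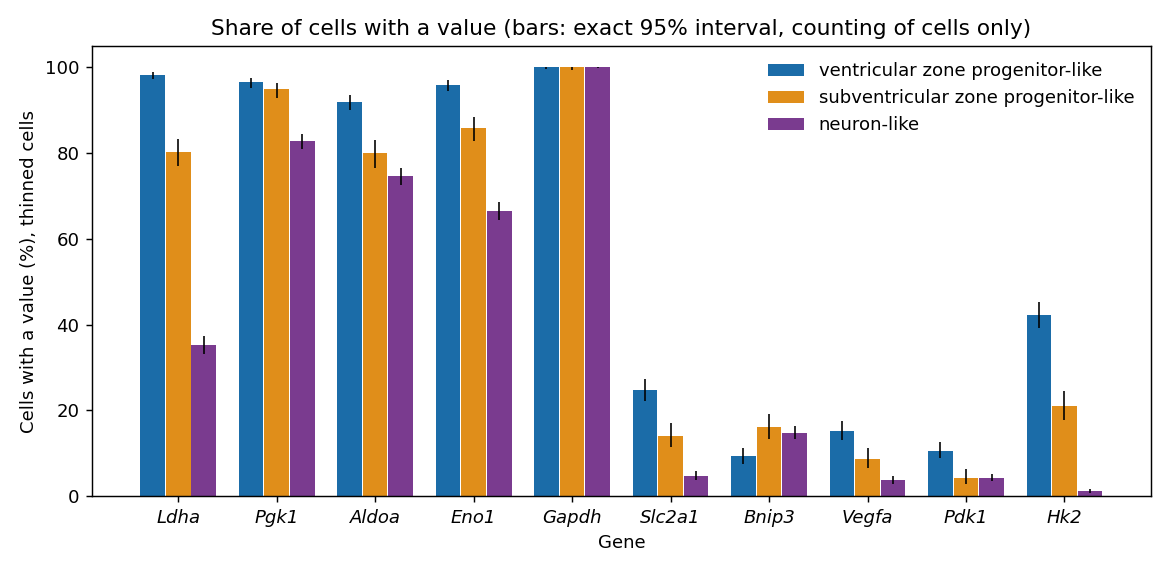
Share of cells with a value for each of the 10 genes after thinning (vertical axis, %), in ventricular zone progenitor-like, subventricular zone progenitor-like and neuron-like cells, with exact 95% intervals. Gapdh is at 100% in all 3 classes, Bnip3 is lowest in the ventricular zone class, and the other 8 are highest there.

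Some other features differed between the same classes. Cells in which the deposited values skip the value 1 made up 6.70% of neuron-like and 2.78% of ventricular zone cells, and without them 9 of the 10 genes were still at least 2-fold lower. Of 8 endothelial markers 3 had rows (Pecam1, Egfl7 and Esam), and their summed level was 0.0307 in neurons and 0.149 in ventricular zone cells. Most of that sum was Egfl7, at 0.0208 and 0.137 in the same order. Pecam1 was alike in both, at 0.00817 and 0.00793, and Esam had 9 summed values over both classes. No row was used for the other markers, Cldn5, Cdh5 and Kdr among them. The part of endothelial cells in the Slc2a1 and Vegfa values was not tested. The 7 erythroid markers with rows summed to 2.05 in neurons and 1.66 in progenitors, and the 16 dissociation stress genes to 39.8 in neurons and 40.8 in progenitors. Of 15 stress genes tested, 6 were at least 2-fold higher in neurons and 2 lower, and their part in the values above was not tested. Near-identical copies can share reads with these genes. Among them the rows found were Eno1b with a sum of 187 and a second Aldoa row with 11, against 12398 for Eno1 and 10975 for the Aldoa row used.

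The subventricular zone stood between the others for most of these genes. The level of Ldha was 7.53 in the ventricular zone, 3.38 (SD 3.48) in the subventricular zone and 0.537 in neurons. Hk2 was at 0.519, 0.277 (SD 0.535) and 0.0168, Eno1 at 4.73, 2.83 (SD 2.27) and 1.23, and Slc2a1 at 0.268, 0.181 (SD 0.406) and 0.0511, in the same order. Gapdh and Pgk1 were still near their ventricular zone level in the subventricular zone, at 22.5 (SD 7.82) and 3.44 (SD 2.05). Pdk1, at 0.0550, was already near its neuronal level, and Bnip3, at 0.179 (SD 0.393), near or above it.

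Between the progenitor classes, 2 of the 10 genes were at least 2-fold lower in the subventricular zone, Ldha at 2.23-fold and Pdk1 at 2.02-fold, and 0 were higher. Of 13380 genes tested, 11.1% were lower by that much and 4.5% higher. The median log2 ratio of subventricular to ventricular zone was -0.66 over the 10 genes and -0.18 over all genes tested. The count depended on the clustering and on the cells kept. It was 5 genes at resolution 0.5, and 1 gene without the cells that skip the value 1, where Pdk1 was at -0.98.

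The ventricular zone clusters were much alike in these genes. Cluster 3 was led by Ung and Cdc6 of the start of S phase, cluster 5 by replication-dependent histone genes and cluster 4 by mitotic genes such as Plk1 and Aurka. Ldha was at 7.16 (SD 4.07) in cluster 3, 8.42 (SD 4.74) in cluster 5 and 6.80 (SD 4.95) in cluster 4. Gapdh stayed within 1.06-fold over these clusters, and Pgk1 was at 3.62, 4.06 and 3.85 in the same order. Set against the other cells of its class, no cluster had any of the 10 genes at least 2-fold lower or higher. The share of the 12491 genes tested that were lower by that much was 4.15%, 1.29% and 2.55% in the same order, and the share higher was 0.688%, 2.14% and 3.27%. Most genes tested thus lay within 2-fold as well, so the likeness is not particular to these 10. The widest ratios between these 3 clusters were those of Vegfa, 1.53-fold and highest in mitotic cluster 4 (0.230, SD 0.373), and Hk2, 1.51-fold and highest in cluster 3 (0.609, SD 0.681).

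The subventricular zone clusters were less alike. Ldha was at 4.86 (SD 4.25) in cluster 1, led by histone genes, and 4.83 (SD 3.49) in cluster 6, led by Gsx1. It was at 1.60 (SD 1.77) in cluster 2, led by mitotic genes such as Cdc20 and Ccnb2, and 1.75 (SD 2.01) in cluster 8, led by Slit1 and Dll3. Clusters 1 and 6 also had low Tubb3, at 7.62 and 7.40, against 17.7 and 21.3 in clusters 2 and 8. Against the rest of the class, Ldha, Bnip3 and Pdk1 were at least 2-fold lower in cluster 2, where 5.9% of 10720 genes were lower and 2.29% higher. Ldha was the 1 gene lower in cluster 8, where 12.3% were lower and 2.07% higher. Clusters 1 and 6 had 0 of the 10 genes past the threshold, where 2.77% and 5.8% of genes were lower and 7.02% and 3% higher. In cluster 2 Bnip3 stood at 0.0957 from 17 summed values and Pdk1 at 0.0225 from 4.

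Among neurons Ldha differed between clusters by up to 5.30-fold. The lowest Ldha level was 0.262 (SD 0.508) in cluster 13, led by Sstr1 and Sema3e, and it was 0.332 in cluster 12, led by Frzb and Gbx1, and 0.363 in cluster 11, led by Cdh9. The Sst and Calb1 cluster 14 was at 0.546 (SD 0.835) and the Tac1 and Ebf1 cluster 18 at 0.373 (SD 0.495). The highest neuronal levels were 1.39 (SD 1.73) in the 40 cells of cluster 7, led by Rspo3, Otp and Sim1, and 1.10 (SD 1.26) in cluster 17, led by Hmx2 and Hmx3. Even these lay below the lowest progenitor cluster for Ldha, cluster 2 at 1.60, though within 1 SD of it. For other genes the classes overlapped. Cluster 7 was above progenitor cluster 2 for Hk2 (0.242 against 0.214) and Eno1 (2.03 against 1.95), and neuron cluster 10 was above it for Aldoa (2.12 against 1.73). The class of cluster 7 is itself unsure. It carried 9 elevated neuron markers and 4 subventricular zone markers, and at resolution 2 and with 4000 variable genes the 40-cell cluster with the same leading genes was named subventricular zone progenitor-like. With all genes allowed in clustering, a 106-cell cluster led by Rspo3 took that name as well. At resolution 0.5 a 175-cell cluster took it too, with Sim1, Otp, Hmx2 and Hmx3 among its leading genes. The class of cluster 17, with 5 elevated neuron markers and 2 subventricular zone markers, may thus depend on the setting too. At resolution 2, with 4000 variable genes, with all genes and with doublets kept, the cluster with Hmx2 and Hmx3 was neuron-like. The unnamed cluster 9 was at 0.883 (SD 1.16).

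Set against the other neuron-like cells, Ldha was at least 2-fold higher in cluster 7 and in cluster 17, where 9.57% and 7.14% of the 13012 genes tested were, and at least 2-fold lower in cluster 13, where 10.9% were. The calls for rarer genes rest on few values. Hk2 had 41 summed values in all neurons, 12 of them in cluster 7, where its level of 0.242 (SD 0.651) was the highest among neurons. Vegfa had 100, of which 41 lay in the Sst cluster 14, at 0.0691 (SD 0.280) against 0.0318 in the other neurons. That made it at least 2-fold higher there, where 1.93% of genes were. Hk2 was also called higher in cluster 10 (2.49% of genes) and lower in clusters 11 (7.05%), 12 (7.76%), 14 (6.77%) and 15 (9.23%), with 0 to 5 summed values in each of these 4. Vegfa was called lower in cluster 12 and in cluster 18 (9.35%), and Slc2a1 in cluster 15, from 2 to 11 summed values each. Bnip3 varied 1.84-fold among neurons, from 0.124 in cluster 15 to 0.229 in cluster 17. Pgk1 varied 1.45-fold, Gapdh 1.65-fold, Aldoa 2.05-fold and Eno1 2.06-fold between their highest and lowest neuron cluster.

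Over the 18 clusters the genes ran together, except Bnip3. The median Pearson correlation of log2 levels over the 45 pairs was 0.82, and among the 10 pairs of Ldha, Pgk1, Aldoa, Eno1 and Gapdh it ran from 0.81 to 0.96. All 9 pairs with Bnip3 were negative, the lowest at -0.41 with Gapdh. These are descriptions over clusters that share 1 library and its depth correction. The clusters span the classes compared above, so these correlations are not separate from the class differences. No median over pairs of other genes was taken to set beside them. Between single ventricular zone cells, Ldha and Eno1 were correlated at 0.53 (n = 1045 cells), and Ldha and Aldoa at 0.44. Among the 5 rarer genes no pair passed 0.102 there. In neurons the highest of all pairs was 0.18, between Pgk1 and Gapdh (n = 2001 cells). For the rarer genes, 49.3% (Hk2) to 88.3% (Bnip3) of ventricular zone cells were at 0, and 59.8% of neuron-like cells were at 0 for Ldha. Many values at 0 lower a correlation between cells, so its size cannot be compared between rare and abundant genes or between classes.

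Patterns most like each gene's were sought among 9622 genes outside the lists by Pearson correlation over the 18 clusters. The clusters span the classes compared above, so a high correlation is not separate from the class differences. The genes named are the closest of these 9622, and no correlation typical of other genes was taken to set beside them. Ldha was closest to Nap1l1 (0.99), Nedd9 (0.98) and Sall3 (0.98). Hk2 was closest to the G1 cyclin gene Ccnd1 (0.97), Csrp1 (0.97) and E2f1 (0.96), and the genes close to Slc2a1 included Ptbp1 and Nol11 (both 0.97). Vegfa was closest to Wfdc2, the Notch target Nrarp and Nedd9 (all 0.92). Eno1 was closest to Sdc4, Hspe1 and Ncl, Pgk1 to Gng5, Uqcr10 and Erh, Gapdh to Prkd3, Tspo and Snrpf, and Aldoa to Ikbip, Glo1 and Fam53b, from 0.95 to 0.98. Bnip3 and Pdk1 had looser matches, Bnip3 with Yipf4 at 0.84 and Pdk1 with Zfp992 at 0.86.

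Other enzymes of glycolysis mostly did not share the size of these differences. Of the 11 enzymes of the list that are not among the 10 genes, 10 had at least 30 summed values in neuron-like and ventricular zone cells together. Of these, 1 (10%) was at least 2-fold lower in neurons, 1 (10%) was higher and 8 lay between, beside 24.4% lower and 17.1% higher among all genes tested, with a median log2 ratio of 0.14. Tpi1, triosephosphate isomerase, was the lower one, at 1.27 (SD 1.26) in neurons and 4.04 (SD 2.34) in progenitors, and the mutase Pgam1 was just inside the threshold at -0.99. Pkm, pyruvate kinase, was at 9.27 (SD 3.56) in neurons and 9.86 (SD 3.61) in progenitors. Eno2, the neuron-specific enolase, was the higher one, at 0.0973 (SD 0.305) in neurons and 0.0130 in progenitors, a log2 ratio of 2.91.

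At several steps the ratios of paralogs had opposite signs. Ldhb, the subunit that favours the return of lactate to pyruvate, was at 5.16 (SD 2.66) in neurons and 2.64 (SD 2.05) in progenitors, a log2 ratio of 0.96 beside -3.81 for Ldha. Hk1, the hexokinase typical of brain, was at 0.231 (SD 0.462) in neurons and 0.129 (SD 0.302) in progenitors, a log2 ratio of 0.84 beside -4.95 for Hk2. Enolase gave 2.91 for Eno2 beside -1.95 for Eno1. Of these higher paralogs, Eno2 passed the 2-fold threshold and Ldhb and Hk1 did not. Ldhb was at 4.34 (SD 2.89) in the subventricular zone, so it too stood between. Among the phosphofructokinases, the log2 ratio was -0.89 for Pfkl, 0.64 for Pfkm and 0.37 for Pfkp. Aldoc was too rare in these classes for a call, with 7 summed values in neurons and 13 in progenitors.

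**Figure D4:**
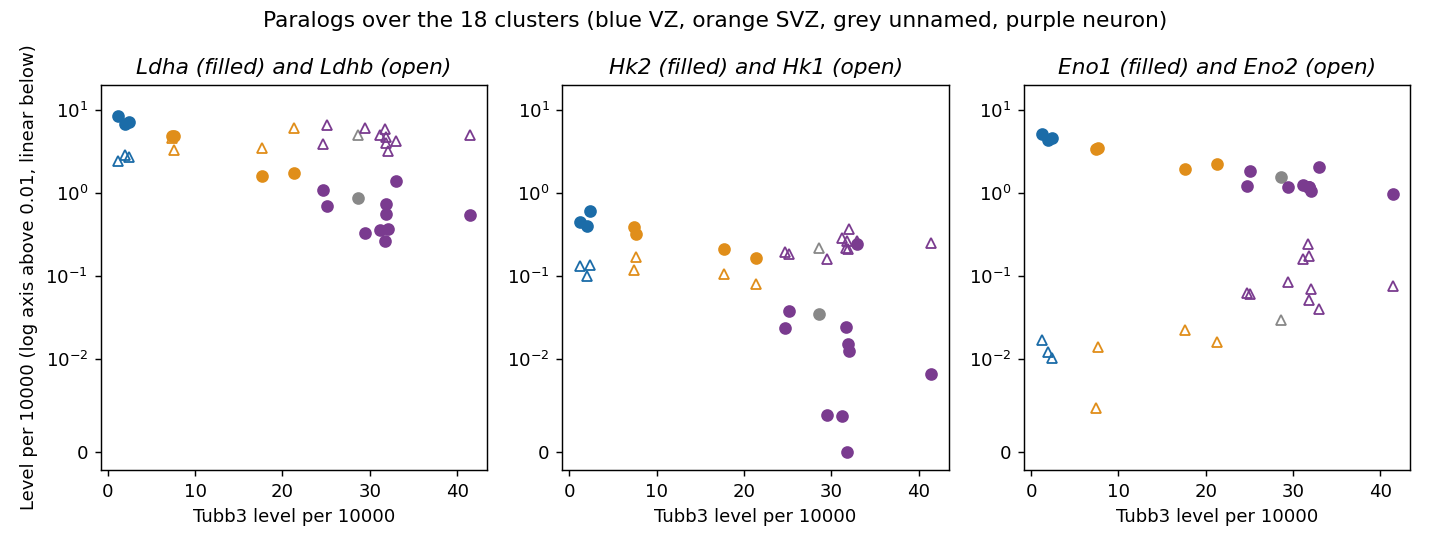
Level per 10000 of Ldha and Ldhb, Hk2 and Hk1, and Eno1 and Eno2 in each of the 18 clusters (vertical axis, logarithmic above 0.01 and linear below) against the Tubb3 level of the cluster (horizontal axis). Each point is a cluster, and heights compare clusters within a gene, not genes with each other; Ldha lies between 0.262 and 1.39 in neuron-like clusters and Ldhb between 3.21 and 6.68.

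Of the 8 listed genes of glucose and lactate transport, 4 were at least 2-fold lower in neurons and 0 higher, with a median log2 ratio of -1.57. Without Slc2a1, 3 of 7 were lower, with a median of -0.75, beside 24.4% lower and 17.1% higher among all genes tested. The lactate and pyruvate carriers Slc16a1 and Slc16a3 were at -4.54 and -2.95, with Slc16a1 at 0.0143 in neurons and 0.332 (SD 0.499) in progenitors. Slc2a4, an insulin-responsive glucose transporter, was at -5.06, with 0.00286 in neurons and 0.0952 in progenitors. That ratio rests on 139 summed values over both classes, few of them in neurons. The neuronal glucose transporter gene Slc2a3 was at 0.0364 in neurons and 0.0613 in progenitors, a log2 ratio of -0.75, and Slc2a8 and the carrier partner Bsg were at 0.75 and 0.17.

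**Figure D5:**
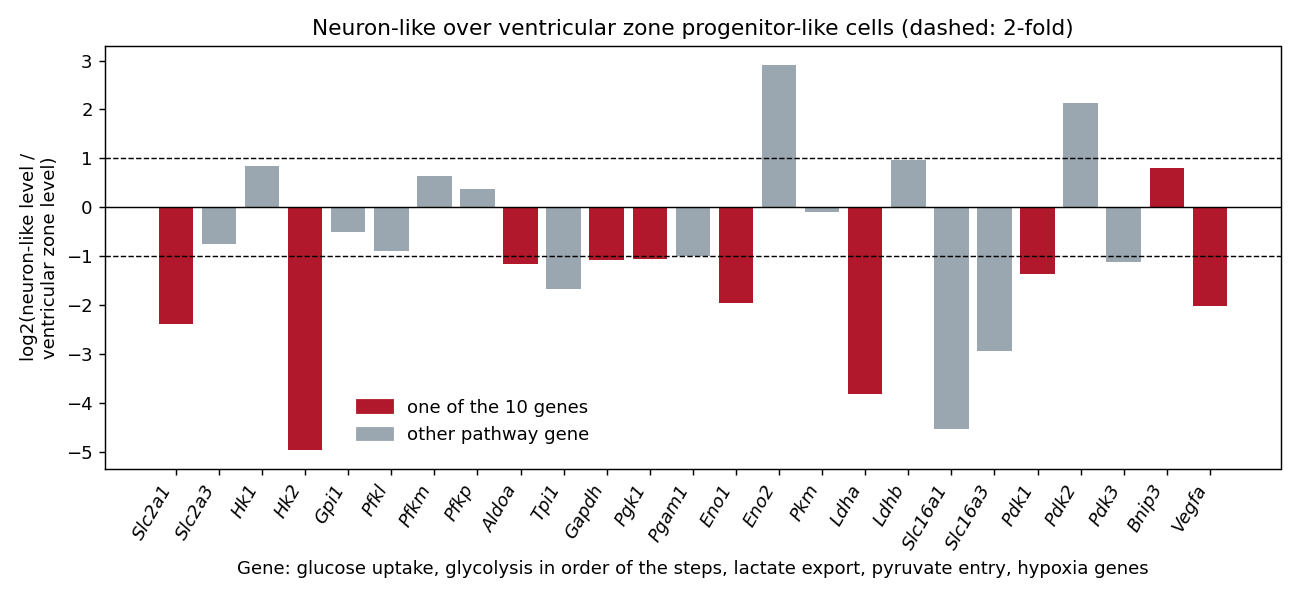
Log2 ratio of the level in neuron-like over ventricular zone progenitor-like cells (vertical axis) for 25 genes in pathway order (horizontal axis), with the 10 genes in red and other pathway genes in grey. Dashed lines mark 2-fold; 9 red bars pass the lower line, Bnip3 is at 0.80, and Eno2 and Pdk2 pass the upper one.

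Genes of pyruvate entry into mitochondria were called about as often as all genes. Of 12 tested, 3 (25%) were lower (Pdk1, Pdk3 and Pdha1) and 2 (16.7%) higher (Pdk2 and the phosphatase gene Pdp1), beside 24.4% and 17.1% of all genes, with a median of -0.11. Without Pdk1, 2 of 11 were lower and 2 higher. Pdk2 was at 0.0441 (SD 0.198) in neurons and 0.0101 in progenitors, a log2 ratio of 2.13 beside -1.37 for Pdk1 and -1.11 for Pdk3. Pdk4 had 1 summed value in neurons and 13 in progenitors.

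Among hypoxia-induced genes, 34 of 36 had a row and 33 were tested, of which 16 were at least 2-fold lower in neurons, 3 higher and 14 between, with a median of -0.91. Without the members of that list among the 10 genes, 13 of 29 (44.8%) were lower and 3 (10.3%) higher, beside 24.4% and 17.1% of all genes tested. The lowest, the membrane-binding protein gene Anxa2, had 2 summed values in neurons and 172 in progenitors, and the repressor gene Bhlhe40 had 1 and 31, so their ratios rest on very few neuronal values. Egln3, a HIF prolyl hydroxylase whose own transcription responds to HIF, had 3 summed values in neurons and 93 in progenitors, a value being found in 0.150% of neuron-like cells (0.0309% to 0.438%) and 6.79% of ventricular zone cells (5.34% to 8.49%). The higher genes were the Myc antagonist Mxi1 at 1.61, Pfkfb4 at 1.25 and Ddit4 at 1.17.

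Of 13 regulators of the pathway tested, 2 (15.4%) were at least 2-fold lower in neurons and 0 higher, beside 24.4% and 17.1% of all genes, with a median of -0.03. Lying within 2-fold was also what most genes did, 8634 of 14770. Hif1a, the oxygen-regulated subunit of HIF-1, was at 1.04 (SD 0.973) in neurons and 1.11 (SD 0.946) in progenitors, a log2 ratio of -0.09. The lower ones were Egln3 and Hif3a (-2.11), from 96 and 38 summed values over both classes. Over the 11 alternatives the count of lower regulators ran from 0 to 3. At the other end stood Egln2 at 0.77 and Arnt2 at 0.59. HIF-1 is controlled mainly through the stability of its protein, which was not measured.

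Branches that draw on glycolytic intermediates were divided between lower genes and genes within the threshold. Of 12 pentose phosphate and serine pathway genes, 6 (50%) were at least 2-fold lower in neurons and 0 higher, beside 24.4% and 17.1% of all genes, with a median of -0.99. Shmt1 was at -6.18 and Phgdh, the entry enzyme of serine synthesis, at -5.78, with a Phgdh level of 0.0732 (SD 0.252) in neurons and 4.02 (SD 2.17) in progenitors. Of the pentose phosphate genes, Tkt was lower as well, at -1.71. Rpe, Rpia, Pgd and Pgls were at -0.95, -0.89, -0.60 and -0.53, and G6pdx and Taldo1 at 0.18 and 0.17.

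The VEGF signalling genes other than Vegfa were split. Vegfb (-1.82) and Vegfc (-2.34) were lower in neurons, while the neuropilin genes Nrp1 and Nrp2, shared receptors of VEGF and class 3 semaphorins, were at 2.90 and 3.68. No row was used for the receptor genes Flt1 and Kdr. Of 15 dissociation stress genes tested, 6 (40%) were at least 2-fold higher in neurons and 2 (13.3%) lower, beside 17.1% and 24.4% of all genes, with a median of -0.11, from Hspa1a at 4.16 and Junb at 2.97 to Fosb at -1.66 and Atf3 at -4.52.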

How the data were processed

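The submitters' processing notes name GRCm38, Cell Ranger 3.0.2 and bcl2fastq. What the authors deposited was a matrix of whole numbers, up to 1245, for 18088 genes in 4001 cells. Its unit was treated as a score that the authors derived from UMI counts, since cell totals lay in a narrow range and 205 cells (5.12%) skip the value 1. How these values were made from reads is not stated in those notes, so raw depth per cell is unknown, and rounding can move the levels of rare genes. The table had 0 mitochondrial rows. Because the values are not raw counts, no count model and no counting interval on levels was used. All cells had at least 1000 genes. Scrublet in scanpy 1.11.5 called 6 cells (0.150%), which were removed. So few calls do not show that doublets were rare.

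The 3995 cells left were scaled to 10000 values, log-transformed and clustered on 2000 variable genes (without the 10 genes and the list genes), 30 principal components, 15 neighbours and Leiden resolution 1 (igraph 0.11.9). A cluster took a class name where 3 or more markers stood at 1.5 times their level elsewhere and were found in 10% or more of its cells. Where several classes qualified, the one with the highest mean marker level gave the name, each marker's log2 level being scaled over clusters. The name was dropped if the 10 leading genes held more markers of another class. Where a symbol named more than 1 row, the row of largest sum was used. Coordinates are from GENCODE M21 and promoter windows from RefSeq. From each of 8 pathway lists the text names the 2 genes at either end, among those with at least 30 summed values, and paralogs. Tpi1, Pgam1, Pkm, Pdha1, Ddit4, Hif1a, G6pdx and Taldo1 were named with their values known, some of them by that rule as well. The same holds for Tkt, Rpe, Rpia, Pgd and Pgls. Likeness used log2(level + 0.01) over clusters, among genes with a value in at least 5% of cells. A few genes are not reported here. Shares of cells were taken after thinning each cell to 10000 values, with exact Clopper-Pearson 95% intervals. Clusters, ratios and lists were compared without a test, because the pool is 1 sample. The ratio computation was tested on simulated data. The genes and lists were chosen with earlier results of these data known. Alternatives changed resolution, variable genes, scaling, weighting, doublets, cells that skip the value 1, the minimum sum and the fold. Leaving out the neuron-like cluster led by Rspo3 was added after seeing the data.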

Additional observations from a re-analysis of the deposited data

How the results depend on the processing

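The count of 9 genes lower in neurons held under all 11 alternatives, and the median log2 ratio of the 10 genes lay between -1.78 and -1.61. No result called at 2-fold turned its direction. The count of genes lower in the subventricular zone was 2, and it was 5 at resolution 0.5, 1 without the cells that skip the value 1, and 6 at 1.5-fold, and the cause of the first pair was not tested. At 1.5-fold, 1 gene (Bnip3) was higher in neurons and 1 in the subventricular zone. With at least 100 summed values, fewer genes were tested and 3 medians of neurons over ventricular zone moved, to -2.39 for glucose and lactate transport (otherwise -1.57), 1.15 for VEGF receptors and partners (otherwise -0.61) and 0.78 for dissociation stress (otherwise -0.11). The log2 ratio of Hk2 was -5.77 with all genes allowed in clustering and -5.57 with 4000 variable genes, and -5.42 without the 40-cell cluster led by Rspo3, an alternative chosen after seeing the data. Levels not rescaled shifted log2 ratios of neurons over ventricular zone by -0.12. Shares of cells were higher without thinning. No paired analysis was possible because the pool is 1 RNA library. Slc2a1, Vegfa, Pdk1, Bnip3 and Hk2 rest on 320 to 991 deposited values each, which limits what their cluster levels can show.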
